A study of Homo sapiens with 2 samples.

Results

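Isolated CpGs flanked by A or T are CpG dinucleotides with an A or T directly before the C and directly after the G and with no other CpG close by. The members were chosen on the autosomes of hg19 by sequence and position alone: A or T on both sides, no other CpG within 35 bp, and more than 5 kb from the start of any protein-coding transcript of GENCODE release 44 lifted to hg19. A cytosine on 1 strand of such a CpG was a member when it had at least 5 reads in both libraries. This gave 69001 cytosines in 45084 CpGs, or 2.18% of the 3168726 sites measured in both libraries and 1.5% of the 3005462 CpGs of this kind in the autosomes. Both strands were measured in 23917 of these CpGs. The comparison class, isolated CpGs with G or C on both sides under the same distance rules, held 49411 cytosines, and isolated CpGs with A or T on only 1 side held 108643.

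The data were 2 targeted bisulfite (MCC-Seq) libraries. SKNO-1 is an acute myeloid leukemia cell line with the t(8;21) translocation, whose product is the RUNX1-RUNX1T1 fusion. SKNO-siAE, labelled SKNO1-siAE, is the line made from SKNO-1 with the lentiviral vector pRRLcPPT.hPGK, which encodes the siAGF1 siRNA against the fusion site of the RUNX1-RUNX1T1 (AML1-ETO) mRNA. The comparison asks how methylation differs between cells with the fusion and cells in which it was silenced. Each line gave 1 library, so no difference below has a replicate check, and the silencing, the transduction, the time in culture and the library preparation cannot be told apart. Whether SKNO-siAE was grown from 1 cell is not given in the sources used here, and counts of methylated reads cannot show whether the fusion was silenced. The deposited sites held 83620068 reads in SKNO-1 against 82164216 in SKNO-siAE. The reads per chromosome, SKNO-1 over SKNO-siAE, ranged from -0.56 to 0.50 on the log2 scale around their median, so the libraries did not carry the genome in equal parts.

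DNA methylation at CpGs is copied to the new strand after each round of replication, mainly by DNMT1. Isolated CpGs between A or T are known as the sites at which this copying lags most, and in dividing cells they lose methylation over time, above all in gene-poor, late-replicating chromatin at the nuclear lamina. They are therefore read as a record of past divisions, and CpGs between G or C or with close neighbours are known to keep more methylation. A level between 0 and 1 is the share of methylated reads, and a mixture of cells cannot be told apart from a mixture of alleles within cells.

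The following hg19 sequences show what a member is and some of the patterns the members took, without one for members low in both libraries. For each level class the CpGs with the most reads were chosen from those with at least 20 reads in both libraries. They are given with 35 bases on each side of the CpG, read 5′ to 3′ on the strand of the measured cytosine, and the capitals mark the CpG and its 2 flanking bases.
Member with high levels in both libraries, chr3:195717927-195717998, - strand, outside protein-coding genes: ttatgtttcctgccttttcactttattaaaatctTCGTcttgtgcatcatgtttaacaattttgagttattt
Member with high levels in both libraries, chr18:44544996-44545067, + strand, KATNAL2 intron or other gene part: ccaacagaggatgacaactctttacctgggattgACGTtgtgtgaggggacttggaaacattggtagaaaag
Member low in SKNO-1 but high in SKNO-siAE, chr2:133114998-133115069, + strand, outside protein-coding genes: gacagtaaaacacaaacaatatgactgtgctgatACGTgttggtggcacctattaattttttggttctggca
Member low in SKNO-1 but high in SKNO-siAE, chr19:20231785-20231856, + strand, exon of ZNF90: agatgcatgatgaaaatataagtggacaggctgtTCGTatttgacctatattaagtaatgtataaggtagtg
Member high in SKNO-1 but low in SKNO-siAE, chr12:90257194-90257265, + strand, outside protein-coding genes: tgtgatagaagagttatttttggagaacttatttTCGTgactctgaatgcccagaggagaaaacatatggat
Member high in SKNO-1 but low in SKNO-siAE, chr13:41105485-41105556, + strand, outside protein-coding genes: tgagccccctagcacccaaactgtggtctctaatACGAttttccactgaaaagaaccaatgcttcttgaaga
G/C-flanked isolated CpG, chr6:58777355-58777426, + strand, outside protein-coding genes: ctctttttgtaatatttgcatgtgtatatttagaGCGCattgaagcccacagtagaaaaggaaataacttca

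At the chromosome 3 site 308 of 329 reads were methylated in SKNO-1 against 246 of 257 in SKNO-siAE, and on its other strand 72 of 74 and 49 of 56. At the chromosome 18 site the counts were 216 of 240 and 249 of 265, but its other strand was lower, with 97 of 134 and 78 of 100. On the strands shown these sites were highly methylated in both lines although they meet every sequence condition of the class. The chromosome 2 site had 6 methylated reads of 244 in SKNO-1 against 155 of 171 in SKNO-siAE, and its other strand had 0 of 80 and 69 of 78. The ZNF90 site, in a gene of the large zinc finger family whose members share sequence, had 5 of 125 and 153 of 159, and the other strand 1 of 64 and 40 of 40. Here both strands were nearly unmethylated in SKNO-1 but nearly fully methylated in SKNO-siAE. The reverse held at the chromosome 12 site, with 102 of 108 methylated reads in SKNO-1 against 3 of 102 in SKNO-siAE, and 9 of 11 and 0 of 19 on the other strand. It held as well at the chromosome 13 site, with 92 of 101 and 4 of 142, and 16 of 16 and 0 of 28 on the other strand. The G/C-flanked site had 4994 of 5496 reads methylated in SKNO-1 against 5994 of 6465 in SKNO-siAE. Its depth was far above the class median of 18 and 17 reads, and whether reads of other genomic copies were counted there was not tested. Among the 24990 members with at least 20 reads in both libraries outside chromosome 8, from which the printed members were chosen since no sequence of that chromosome is shown, 6814 had a level of at least 0.9 in both, 3160 of at most 0.1 in both, 659 were low in SKNO-1 but high in SKNO-siAE, and 198 the reverse.

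The A/T-flanked isolated CpGs had lower methylation in SKNO-1 than in SKNO-siAE, and lower methylation than the G/C-flanked ones in both lines. Their mean level was 0.535 ± 0.425 in SKNO-1 against 0.616 ± 0.414 in SKNO-siAE (SD over 69001 sites, 1 library each). The mean difference, SKNO-1 minus SKNO-siAE here and below, was -0.0805, with an SD of 0.380 over sites. Where a pair of values is given below, SKNO-1 comes first. Pooling all reads, the methylated share was 0.562 in SKNO-1 (95% Wilson interval 0.562 to 0.563) against 0.645 in SKNO-siAE (0.645 to 0.646). These intervals cover counting error only, since reads without molecular identifiers are not independent molecules. The G/C-flanked isolated CpGs had mean levels of 0.684 ± 0.392 and 0.772 ± 0.352 (SD over 49411 sites), a difference of -0.0875. A/T-flanked minus G/C-flanked was thus -0.149 in SKNO-1 against -0.156 in SKNO-siAE. The difference between the libraries was not larger at A/T-flanked CpGs: the library difference of the A/T-flanked class minus that of the G/C-flanked class was 0.00703, and this value changed sign to -0.00460 when each library used all of its own sites. As a ratio of mean levels, SKNO-1 over SKNO-siAE was 0.869 for the A/T-flanked and 0.887 for the G/C-flanked class. All autosomal shared sites differed by -0.0674.

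Most members were either nearly unmethylated or nearly fully methylated, so the class means hide a split. In SKNO-1 30.9% of members had a level of at most 0.1 and 36.3% of at least 0.9. In SKNO-siAE the shares were 24.2% and 44.6%. For the G/C-flanked class the low shares were 18.4% and 12.3% and the high shares 51.8% and 62.8%. The shift between the libraries was uneven over sites: 60.1% of members differed by less than 0.2, 26.1% were lower in SKNO-1 by at least 0.2 and 13.8% higher. By at least 0.5, 14.2% were lower and 6.17% higher. High levels in both libraries were seen at 26.3% of members and low levels in both at 16.7%. Another 4.62% were low in SKNO-1 and high in SKNO-siAE, and 1.74% the other way. Moves to and from levels in between were more frequent: 13.65% were in between in SKNO-1 and high in SKNO-siAE against 8.25% the other way, and 9.62% were low in SKNO-1 and in between in SKNO-siAE against 5.73% the other way. All these shares include members with as few as 5 reads in a library, and the low shares depended on depth. They were 37.8% and 30.5% in the shallowest depth class but 23.4% and 17.3% where both libraries had at least 30 reads. Of the 24990 members outside chromosome 8 with at least 20 reads in both libraries, 659 were low in SKNO-1 but high in SKNO-siAE. The reverse held for 198 of them.

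The bases beside the CpG ordered the levels in the same way in both libraries. The 4 contexts with A or T on both sides lay close together, from 0.525 (TCGA) to 0.545 (ACGA) in SKNO-1 while they ran from 0.607 (TCGA) to 0.625 (ACGA) in SKNO-siAE. Contexts with A or T on 1 side ranged from 0.593 (CCGT) to 0.670 (GCGA) in SKNO-1 while they ran from 0.685 (CCGT) to 0.756 (GCGA) in SKNO-siAE. Contexts with G or C on both sides ranged from 0.638 (CCGG) to 0.731 (GCGC) and from 0.733 (CCGG) to 0.807 (GCGC). No context with A or T on both sides reached the level of any other context.

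The gap between A/T-flanked and G/C-flanked CpGs narrowed as more CpGs lay close by. With 1 other CpG within 35 bp, A/T-flanked CpGs of the same distance from starts had mean levels of 0.620 in SKNO-1 against 0.712 in SKNO-siAE. With 3 the levels were 0.717 and 0.802, and with 6 or more 0.776 and 0.836. The G/C-flanked CpGs rose from 0.684 and 0.772 with none to 0.797 and 0.859 with 3, and had 0.749 and 0.815 with 6 or more. At 6 or more neighbours the order of the classes was turned around in both libraries. Beyond the 35 bp the distance to the nearest CpG had little relation to the level. Members whose nearest CpG was 36 to 50 bp away had 0.543 and 0.634, and those whose nearest CpG was at least 251 bp away had 0.530 and 0.605. At the edge of the rule, A/T-flanked CpGs with a neighbour at 31 to 35 bp had 0.569 and 0.660, and members with one at 36 to 40 bp had 0.542 and 0.641.

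Other properties of the sites moved with the level. The level of members fell as the G and C content of the 1000 bp around the CpG rose, from 0.606 and 0.709 under 35% to 0.478 and 0.573 above 50%. The G/C-flanked class fell likewise, from 0.772 and 0.860 to 0.644 and 0.739, and stayed above the members in each of the 5 classes of local content in both libraries. The level also rose with depth, from 0.504 and 0.587 at members whose shallower library had 5 to 9 reads to 0.589 and 0.665 at those with at least 30. The median depth was 21 and 20 reads for members and 18 and 17 for the G/C-flanked class, and the A/T-flanked class was lower at each depth. In all, 147 members had more than 200 reads in a library. Leaving them out gave a difference of -0.0805 as before.

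Members far from genes had the lowest levels and the largest difference between the lines. Among the members 10.9% lay in exons of protein-coding genes, 45.9% in other parts of such genes and 43.3% outside them. Exonic members had mean levels of 0.718 in SKNO-1 against 0.762 in SKNO-siAE, a difference of -0.0439. Members in introns and other gene parts had 0.596 and 0.662, a difference of -0.0655. Outside genes the levels were 0.424 and 0.530, a difference of -0.106. G/C-flanked sites outside genes had 0.619 and 0.731, a difference of -0.111.

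The same order appeared with the distance from the nearest protein-coding start. At 5 to 10 kb the members had 0.625 in SKNO-1 against 0.679 in SKNO-siAE. At 50 to 100 kb they had 0.526 and 0.601, and at 200 to 500 kb 0.373 and 0.494. The 2810 members more than 500 kb from a start had 0.279 and 0.474, a difference of -0.195, and 54.3% of them were at most 0.1 in SKNO-1 against 36.4% in SKNO-siAE. The G/C-flanked sites fell less, to 0.535 and 0.725, with a difference of -0.190. The level thus fell further with distance at A/T-flanked CpGs, while the differences between the lines beyond 500 kb were close in both classes. Near the limit of the rule, A/T-flanked isolated CpGs 4 to 5 kb from a start had 0.623 and 0.685, and members at 5 to 6 kb had 0.595 and 0.663.

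The 2 strands of the same CpG, read from different molecules of the same cells, gave a spread within a library. It holds technical scatter and any true difference between the strands, which cannot be told apart, and no spread between cultures. Over the 15128 member CpGs whose strands each had 10 reads or more in both libraries, the strands differed by a mean absolute 0.110 in SKNO-1 against 0.112 in SKNO-siAE. The same strand differed between the libraries by 0.229 on the + strand and 0.231 on the - strand. Strands of 1 library were at least 0.5 apart at 2.34% and 2.64% of the CpGs, and the libraries at 17.0% and 17.6%. Close members had more similar levels than distant ones. The mean absolute difference in level between successive members of 1 library rose from 0.199 and 0.244 at gaps of 36 to 100 bp, where sites can share reads, to 0.342 and 0.375 at gaps of over 100 kb up to 1 Mb. The library differences of such members were 0.278 and 0.357 apart at these gaps.

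Single sites were compared with a 2-sided Fisher's exact test on their reads, with Benjamini-Hochberg adjustment over all 3168726 shared sites. Calls needed an adjusted p under 0.05 together with a level difference of 0.2 or more. Such a call compares the reads of 2 libraries, not the conditions. Of the members 12480 (18.1%) were lower in SKNO-1, where 11.7% of all shared sites were. A further 5699 members (8.26%) were higher, against 4.40% of all shared sites. In the G/C-flanked class 15.9% were lower and 5.95% higher. The members also had more reads, and calls rise with depth: where both libraries had 20 reads or more, 22.04% of members and 14.98% of all autosomal sites were lower, and 10.4% and 6.13% were higher. The called members, which the call requires to differ widely, had median levels of 0.0393 in SKNO-1 against 0.962 in SKNO-siAE for the lower ones and of 0.936 and 0.0784 for the higher ones. Of the 23917 CpGs with both strands measured, 5228 had only 1 strand called and 3927 had both. Where both were called, 3853 of 3927 CpGs had the same direction on both, 2764 lower and 1089 higher in SKNO-1.

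The level of A/T-flanked isolated CpGs varied widely along the genome. Of 2705 bins of 1 Mb with a member, 1555 held at least 20 (median 33), and these bins held 82.4% of all members. The mean level of a bin ran from 0.00921 to 0.977 in SKNO-1 (median 0.587) while it ran from 0.0447 to 0.986 in SKNO-siAE (median 0.651). Bins under 0.2 numbered 167 in SKNO-1 against 29 in SKNO-siAE, with 23 in both. Bins of at least 0.8 numbered 266 and 328, with 180 in both. Over the 1555 bins Pearson's r between the libraries was 0.761 and Spearman's rank correlation 0.753. Both libraries come from 1 line and share probes and base composition, and bins are not replicates, so these values are a description.

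In 571 bins (36.7%) SKNO-1 was lower by at least 0.1, against 33.2% of the 2720 bins made from all autosomal shared sites. In 133 bins (8.55%) it was higher by at least 0.1, against 0.809% of the bins of all sites. The bins of all sites held a median of 764 sites, far more than those of the members. Among 1007 bins with at least 20 G/C-flanked isolated CpGs (median 29), 37.1% were lower and 3.67% higher, and the SD of the bin differences was 0.111 against 0.154 for the members. Over 432 bins with at least 20 members on each strand, the strands of SKNO-1 were 0.1 or more apart in 30 bins in one direction and 20 in the other, and those of SKNO-siAE in 31 and 26. Between the libraries 152 of the 432 bins were lower and 31 higher in SKNO-1 on the + strand, and 163 and 34 on the - strand. The strand counts hold only the scatter between strands of the same cells, so they are no measure of what 2 separate cultures would give. The differences did not follow the read ratio of the bin closely (r = 0.0800 over bins, as a description). Of the 912 bins whose read ratio was within 0.15 of the median on the log2 scale, 341 were lower and 68 higher.

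Gene-poor bins had low levels. The 40 bins with no protein-coding start had median levels of 0.283 in SKNO-1 against 0.420 in SKNO-siAE, and 26 of them (65%) were lower and 5 (12.5%) higher in SKNO-1. The 296 bins with more than 50 starts had 0.637 and 0.698, with 34.5% lower and 4.39% higher. In 927 bins with at least 20 sites of each class, the A/T-flanked mean was below the G/C-flanked mean in 774 bins in SKNO-1 against 791 in SKNO-siAE, with a median difference of -0.128 and -0.139. Both classes were lower in SKNO-1 in 566 of these bins, both higher in 126, and opposite in 235. Neighbouring bins resembled each other only in part, with r between adjacent bins of 0.331 in SKNO-1, 0.310 in SKNO-siAE and 0.265 for the difference (1118 pairs).

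The lowest bins of SKNO-1 were nearly free of methylation at their members. The bin chr8:79000001-80000000 (PKIA, ZC2HC1A and IL7, the interleukin 7 gene) had 0.00921 ± 0.0225 in SKNO-1 against 0.255 ± 0.407 in SKNO-siAE (SD over 24 sites). The bin chr12:79000001-80000000, with SYT1, a synaptic vesicle protein gene, and PAWR, had 0.0199 and 0.130 over 23 sites. The bin chr2:221000001-222000000, with no protein-coding gene, had 0.0205 and 0.1503 over 22 sites. The lowest bins of SKNO-siAE were low in both lines. They were the bin chr3:117000001-118000000, with no protein-coding gene (0.0430 and 0.0447 over 22 sites), the bin of RND3, a small GTPase gene, at chr2:151000001-152000000 (0.0337 and 0.0787 over 41 sites) and the bin of the cell adhesion genes NTM and OPCML at chr11:132000001-133000000 (0.0892 and 0.0950 over 40 sites). The G/C-flanked sites in the last 3 bins had higher levels, with means of 0.424, 0.697 and 0.626 in SKNO-siAE over 13, 20 and 42 sites.

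The 5 bins with the largest differences had means of at most 0.211 in SKNO-1 and of at least 0.792 in SKNO-siAE. At chr7:80000001-81000000, with CD36, the fatty acid transporter, GNAT3 and SEMA3C, the 29 members had 0.0777 ± 0.206 and 0.906 ± 0.213 (SD over sites). Of these 29 members, 27 were lower in SKNO-1 by at least 0.2, against 26.1% of all members. The bin of the axon guidance genes SEMA3E and SEMA3A at chr7:83000001-84000000 had 0.0742 and 0.792 over 28 sites. Between and beside them, bins with fewer members also had large differences: 0.148 against 0.824 in the bin starting at 82000001 (18 sites), 0.0934 against 0.797 in that starting at 84000001 (16 sites) and 0.0182 against 0.567 in that starting at 85000001 (10 sites). The stretch was not even, since in the bin starting at 81000001 the 42 members had 0.493 and 0.729. These neighbouring bins were picked with their values in view. In the bin starting at 86000001 the 30 members had 0.251 and 0.406. The bin starting at 87000001 had 0.672 and 0.934 (8 sites), and that starting at 88000001 was turned, with 0.677 and 0.487 (6 sites). Before the CD36 bin, the bins starting at 76000001 and 77000001 had 0.859 and 0.934 (18 sites) and 0.695 and 0.9155 (40 sites). Those starting at 78000001 and 79000001 had 0.050 and 0.206 (19 sites) and 0.237 and 0.762 (15 sites). The G/C-flanked sites differed as well, with 0.282 and 0.951 in the CD36 bin (12 sites) and 0.179 and 0.923 in the SEMA3A bin (10 sites), where their difference was larger than that of the members. The read ratios of the 6 bins from 80000001 to 86000000 lay between -0.09 and 0.27 on the log2 scale.

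Chromosome 13 held a similar stretch. The bin chr13:55000001-56000000, with no protein-coding gene, had 0.183 ± 0.307 and 0.976 ± 0.0892 (SD over 25 sites), the bin before it 0.171 and 0.724 (19 sites) and the bin after it 0.121 and 0.978 (8 sites). The bin starting at 53000001 differed less, with 0.436 and 0.529 (41 sites), and that starting at 52000001 had 0.841 and 0.856 (35 sites). These neighbours were picked with their values in view. The 10 G/C-flanked sites of the bin starting at 55000001 had 0.289 and 0.959. On chromosome 5 the levels were 0.154 ± 0.233 and 0.898 ± 0.221 in the 31 members at chr5:16000001-17000000 (MARCHF11, ZNF622, RETREG1 and MYO10) and 0.211 ± 0.172 and 0.952 ± 0.107 in the 26 members at chr5:20000001-21000000 (CDH18). In the bin before the latter the 17 members had 0.0354 and 0.807. The bin starting at 17000001 had 0.559 and 0.863 (31 sites), and the bins with 6 to 12 members starting at 18000001, 21000001, 22000001, 23000001 and 24000001 were lower in SKNO-1 as well, with differences from -0.748 to -0.143. Before them the levels were closer or turned, with 0.187 and 0.284 in the bin starting at 15000001 (30 sites) and 0.678 and 0.402 in that starting at 14000001 (104 sites). These neighbouring bins too were picked with their values in view. G/C-flanked sites had 0.556 and 0.844 in the MYO10 bin (15 sites) and 0.631 and 0.958 in the CDH18 bin (4 sites). The read ratio was 0.86 on the log2 scale in the MYO10 bin, 0.24 in the CDH18 bin and -0.50 in the chromosome 13 bin, so the reads of these bins were not in equal parts, and their part in the differences was not tested.

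The 5 bins with the largest differences in the other direction had means of at least 0.746 in SKNO-1 and of at most 0.366 in SKNO-siAE. At chr14:60000001-61000000, a bin with RTN1, PPM1A and SIX6 among its genes, the 25 members had 0.964 ± 0.0942 in SKNO-1 against 0.366 ± 0.442 in SKNO-siAE. Of these 25 members, 17 lay at least 0.2 higher in SKNO-1, against 13.8% of all members. The ZNF608 bin chr5:124000001-125000000 had 0.757 and 0.2 (39 sites, log2 read ratio 1.09). The AGAP1 bin chr2:236000001-237000000 had 0.746 and 0.254 (47 sites, ratio -0.63). At chr11:60000001-61000000, with the MS4A gene cluster, which includes the B cell antigen gene MS4A1 (CD20), and with CD5 and CD6, the 20 members had 0.820 and 0.366 (ratio 0.06). The bin chr4:14000001-15000000, with no protein-coding gene, had 0.773 and 0.350 (28 sites, ratio -0.03). The G/C-flanked sites of these bins differed less than the members, with 0.841 and 0.833 on chromosome 14 (7 sites), 0.908 and 0.729 in the ZNF608 bin (9 sites) and 0.895 and 0.644 in the AGAP1 bin (45 sites). They had 0.679 and 0.441 on chromosome 11 (12 sites) and 0.988 and 0.7695 on chromosome 4 (13 sites).

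Across the chromosomes the direction was the same. The mean of the members was lower in SKNO-1 on 22 of 22 autosomes, and below the G/C-flanked mean on 22 of 22 in both libraries. The largest difference was on chromosome 21 (0.507 and 0.669 over 484 sites, -0.162), where the G/C-flanked sites differed by -0.156. The smallest was on chromosome 14 (0.507 and 0.552 over 2425 sites, -0.0447).

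Inside genes, members also differed gene by gene. At least 20 members were found in 288 protein-coding genes, of which 110 (38.2%) were lower in SKNO-1 by at least 0.1 and 32 (11.1%) higher. Over all shared sites more than 5 kb from a start, 25.1% of 6480 genes were lower and 4.61% higher. These shares rest on another set of genes and sites, so they are not like for like. Among the 288 genes, those under 0.2 numbered 67 in SKNO-1 against 13 in SKNO-siAE, and those of at least 0.8 numbered 110 and 113.

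The 5 genes with the largest lower level in SKNO-1 were MYO10, CDH18, DGKB, BMPR1A and NLGN1. MYO10 (chr5:16662016-16936397, - strand), which encodes the unconventional myosin of filopodia, had 25 members. They ranged from 0 to 0.387 in SKNO-1 (median 0.0130) while they ran from 0.5 to 1 in SKNO-siAE (median 1). As the gene with the largest difference, MYO10 was chosen on these values, so their separation is no separate result. Its 10 G/C-flanked sites had 0.654 and 0.869, and its 432 shared sites of all kinds more than 5 kb from a start differed by -0.273, a smaller difference than the -0.824 of the members. The log2 read ratio was 0.86 at the start of MYO10 and 0.81 at that of CDH18. CDH18 (chr5:19471405-20575982, - strand), a cadherin of the nervous system, had 0.116 ± 0.142 and 0.924 ± 0.183 over 33 members. Of these 33, 32 were lower in SKNO-1 by at least 0.2, against 26.1% of all members. DGKB, a diacylglycerol kinase gene, had 0.141 and 0.788 over 20 members, and its 58 such sites differed by -0.510. BMPR1A, a receptor of bone morphogenetic proteins, had 0.224 and 0.856 over 31. NLGN1, a synaptic adhesion protein gene, had 0.154 and 0.784 over 28. The G/C-flanked sites of these genes had 0.452 and 0.971 in CDH18 (10 sites), 0.585 and 1 in DGKB (8 sites), 0.366 and 0.953 in BMPR1A (6 sites) and 0.688 and 0.947 in NLGN1 (5 sites), all lower in SKNO-1. The log2 read ratios at the starts of DGKB, BMPR1A and NLGN1 lay between -0.16 and 0.12.

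The 5 genes with the largest higher level in SKNO-1 were ZFPM2, NAV1, NBEA, AGAP1 and PDE7B. ZFPM2 (chr8:105602961-106816767, + strand), the gene of the GATA cofactor FOG2, had 22 members from 0.600 to 1 in SKNO-1 while they ran from 0 to 1 in SKNO-siAE, with medians of 1 and 0.234. Its read ratio was -0.91 on the log2 scale. NAV1, a microtubule-binding protein of neurons, had 0.816 and 0.231 over 25 members. NBEA, a vesicle trafficking protein gene, had 0.971 ± 0.0781 and 0.399 ± 0.358 (SD over 20 members). AGAP1, a GTPase-activating protein of Arf proteins, had 0.839 and 0.278 over 43 members, but its 2092 shared sites of all kinds more than 5 kb from a start differed by only 0.139. PDE7B, a cAMP phosphodiesterase gene, had 0.826 and 0.295 over 27. In these genes the SKNO-siAE levels were spread from 0 to 1, while most SKNO-1 levels were high. The G/C-flanked sites had 0.966 and 0.771 in ZFPM2 (18 sites), 0.839 and 0.556 in NAV1 (27 sites), 0.952 and 0 in NBEA (3 sites), 0.898 and 0.647 in AGAP1 (49 sites) and 0.843 and 0.545 in PDE7B (20 sites), all higher in SKNO-1. The log2 read ratios at the starts of NAV1, NBEA, AGAP1 and PDE7B were 0.17, -0.14, -0.63 and 0.31, and their part in the differences was not tested.

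A list of long genes best known from neurons, most of them of cell adhesion and synapses, had low levels at its members. The list was chosen with earlier results of these data known, so its levels are a description. Of 18 listed genes 15 had at least 10 members, and the median of their means was 0.195 in SKNO-1 against 0.322 in SKNO-siAE. Over the 1054 genes with at least 10 members the medians were 0.700 and 0.744. By at least 0.1, 8 of the 15 were lower in SKNO-1 and none (0) higher, against 35.9% and 14.04% of the 1054 genes. CDH13, a cadherin, had 0.0177 and 0.0804 over 23 members. PTPRD, a receptor phosphatase gene, had 0.0124 and 0.0722 over 18, and CNTNAP2, a neurexin-family gene, 0.0363 and 0.0640 over 21. These genes were near 0 in both lines. LRP1B, a lipoprotein receptor-related gene, had 0.205 and 0.766 over 14 members. PTPRN2, a receptor phosphatase gene of secretory vesicles, had 0.230 and 0.487 over 192 members, and DLGAP2, a postsynaptic scaffold gene, 0.195 and 0.409 over 174. CSMD1, a gene of a membrane protein with complement-control domains, had 0.153 and 0.322 over 25. KCNIP4, a potassium channel partner, had 0.331 and 0.495 over 12, and RBFOX1, a splicing factor gene, 0.159 and 0.265 over 44. LRP1B, PTPRN2, DLGAP2, CSMD1, KCNIP4 and RBFOX1 were among the lower genes of the list. CSMD2, a paralog of CSMD1, had 0.0231 and 0.115 over 13 members, and CTNNA2, a neural catenin gene, 0.278 and 0.306 over 35. The scaffold gene DLG2 had 0.509 and 0.410 over 32 and NRXN3 0.504 and 0.484 over 28, so the list was not uniform.

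Members in genes of blood cells were mostly methylated in both lines. Of 19 listed genes 10 had at least 10 members, with median gene means of 0.844 in SKNO-1 against 0.827 in SKNO-siAE and a median gene difference of -0.0245. In this list 3 of the 10 genes were lower by at least 0.1 and none (0) higher, against 35.9% and 14.04% of the 1054 genes, so the lower share was near that of all genes. BACH2, a transcription factor gene of lymphocytes, had 0.215 ± 0.334 and 0.593 ± 0.418 over 24 members (log2 read ratio -0.60). RUNX1, whose gene is broken by the translocation, had 0.454 ± 0.357 and 0.684 ± 0.394 over 25 members. Of these 25, 10 were lower and 4 higher by at least 0.2, against 26.1% and 13.8% of all members. ELMO1, an engulfment and migration gene, had 0.568 and 0.721 over 15. G/C-flanked sites had 0.3335 and 0.846 in BACH2 (13 sites), 0.766 and 0.733 in RUNX1 (10 sites) and 0.939 and 1 in ELMO1 (6 sites). Shared sites of all kinds more than 5 kb from a start differed by -0.328 in BACH2, -0.120 in RUNX1 and 0.00973 in ELMO1. The other 7 genes differed by less than 0.1. FOXP1, a forkhead factor gene, had 0.915 and 0.919 over 47 members, ARHGAP15, a GTPase-activating protein gene, 0.972 and 0.954 over 19, and DOCK2, a regulator of blood cell migration, 0.899 and 0.847 over 24. ETV6, an ETS family repressor gene, had 0.895 and 0.825 over 15, and MSI2, an RNA-binding protein gene of blood stem cells, 0.918 and 0.964 over 26. PRKCB, a protein kinase C gene, had 0.792 and 0.794 over 13, and FLI1, an ETS factor gene, 0.740 and 0.830 over 10.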

How the data were processed

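SKNO-1 and SKNO-siAE gave 1 MCC-Seq library each. The authors captured bisulfite-converted DNA with SeqCap Epi probes (Roche NimbleGen), sequenced paired reads, and used cutadapt 1.4.2 and BSMAP 2.73 with hg19, as in the submitters' processing notes. The authors deposited counts of methylated and unmethylated reads per CpG cytosine and strand, not normalized, for sites with at least 5 reads. Capture and bisulfite PCR set which sites were deep enough, and sequence variants of the line that remove a CpG were not screened and would be read as unmethylated. Reads of mitochondrial sites, where methylation is close to absent, were called methylated at 0.351% and 0.378%.

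The level of a site was methylated reads over all reads, and class, bin and gene means weighted sites equally. Median depth of members was 21 and 20 reads, so a single level is imprecise. Shares of pooled reads have 95% Wilson intervals. With 1 library a group there was no test of the conditions, and bins and genes were counted at a difference of at least 0.1. Sites were called with a 2-sided Fisher's exact test (Benjamini-Hochberg over 3168726 sites), tested on simulated reads. Read ratios were the log2 of SKNO-1 over SKNO-siAE reads at all shared sites, centred on the median.

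The members, gene lists and rules were chosen with earlier results of these data known. The text names the 3 lowest bins of each library and the 5 bins and 5 genes with the largest difference in each direction, from those with at least 20 members. It also names the genes of the 2 lists with at least 10 members (some items are not reported here), the chromosomes with the largest and smallest difference, and the deepest CpGs of each level class, of which 1 G/C-flanked site is not printed. Bins beside them were picked after their values were seen. Alternatives were other depth minimums, distances, bins and adjustments, pooled reads, merged strands and own sites. Libraries from 5-aza-treated cells were not used here. The tools were scipy 1.17.1, numba 0.67.0, numpy 2.4.6, pandas 2.3.3 and matplotlib 3.10.9 under Python 3.11.15.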

Additional observations from a re-analysis of the deposited data

How the results depend on the processing

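The lower level in SKNO-1 and the lower level of A/T-flanked than of G/C-flanked CpGs kept their direction under every alternative run. The library difference was -0.0792 with at least 10 reads, -0.0830 with pooled reads, -0.0832 with merged strands, -0.1003 with own sites, -0.0738 with no other CpG within 70 bp, -0.08945 beyond 20 kb from a start and -0.0734 beyond 1 kb. A/T-flanked minus G/C-flanked was, in SKNO-1 and SKNO-siAE, -0.154 and -0.160 with merged strands, -0.175 and -0.170 with own sites, -0.154 and -0.169 with 70 bp, -0.165 and -0.173 beyond 20 kb, -0.141 and -0.149 beyond 1 kb, -0.147 and -0.152 in bins of balanced read ratio and -0.135 and -0.149 in matched bins. In SKNO-siAE it was -0.151 with pooled reads. The gap between the 2 library differences was 0.0024 with pooled reads, 0.0154 with 70 bp, 0.00429 in balanced bins and 0.0138 in matched bins, and reversed to -0.00460 with own sites. The cause was not tested. With at least 10 sites a bin, 881 of 2214 bins (39.8%) were lower and 216 (9.76%) higher, and in balanced bins 341 of 912 (37.4%) and 68 (7.46%). With at least 10 reads 368 of 1035 bins (35.6%) were lower. Fewer or more bins entered in these cases. With Bonferroni adjustment 3349 members (4.85%) were lower and 1236 (1.79%) higher, and the share of all shared sites under this adjustment is not given here. Of 75 alternative values in all, 26 stayed within their limit (the counting interval for a level or difference, 1.5 times for a count), among them those without sites over 200 reads, an alternative chosen after seeing the data. Leaving out repeats by lower-case bases was not run, since the reference holds none. Leaving out a replicate was not possible with 1 library a group. No paired analysis was possible because each group had 1 library.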

Other observations

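On the X chromosome, which the member rule leaves out, 704 A/T-flanked isolated cytosines had 0.527 ± 0.443 in SKNO-1 against 0.631 ± 0.438 in SKNO-siAE (mean level ± SD over sites), a difference of -0.104. The 479 G/C-flanked ones had 0.685 ± 0.409 and 0.770 ± 0.373, a difference of -0.0854.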
